A study of Rattus norvegicus with 25 samples.

Results

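rno-miR-103-3p and rno-miR-107-3p, the rat forms of miR-103-3p and miR-107-3p, are microRNAs (miRNAs), short RNAs that bind messenger RNAs and lower their output. They are 2 of the 764 rat mature miRNAs in the count table and were chosen by name, with earlier results of these data known. Small RNA had been sequenced from mitochondria of the red part of the gastrocnemius, an oxidative hindlimb muscle, in 25 libraries of 1 male Wistar-Kyoto rat each. The 13 trained rats had endurance running, 5 days per week over 4 weeks, starting at 5 weeks of age, and for the 12 sedentary rats the treadmill stood still. All preparations, those of sedentary rats included, were exposed to RNase A while the mitochondria were intact, and neither whole muscle nor mitochondria without RNase A were analysed here, so a count does not show where in the cell a miRNA lay. Libraries are named by group and by the number in their title.

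Both miRNAs are best known from metabolism. They lie in introns of the pantothenate kinase genes Pank1, Pank2 and Pank3, whose enzymes start the synthesis of coenzyme A, the carrier of acyl groups in fat oxidation and in the citric acid cycle. In liver and fat of obese mice they lower insulin sensitivity, with caveolin-1, a scaffold of the insulin receptor's membrane domain, as a described target.

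The mature sequences are shown first because the counts turn on how alike they are. RefSeq sequences (rat assembly GRCr8) are written 5′ to 3′ with the seed, bases 2 to 8, in capitals.
miR-103-3p: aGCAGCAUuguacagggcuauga
miR-107-3p: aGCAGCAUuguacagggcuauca
Both are 23 bases long and share the seed GCAGCAU, which no other row of the table matched to RefSeq had (687 of 764 rows matched). They differ by a single substitution, G22C, counted from 1 at the 5′ end with the base of miR-103-3p first, which leaves 1 base after it.

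miR-103-3p is cut from 2 hairpin precursors and miR-107-3p from 1. They are given with the mature miRNA in capitals and with RefSeq's positions in GRCr8, since the sources used here do not give the build behind the counts.
Mir103a1: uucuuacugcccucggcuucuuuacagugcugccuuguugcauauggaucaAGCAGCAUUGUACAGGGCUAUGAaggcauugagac
Mir103a2: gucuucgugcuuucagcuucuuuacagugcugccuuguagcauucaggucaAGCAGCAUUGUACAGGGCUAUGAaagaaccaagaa
Mir107: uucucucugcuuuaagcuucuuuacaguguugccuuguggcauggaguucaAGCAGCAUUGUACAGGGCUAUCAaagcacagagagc
Mir103a1 lies at chr10:20748474-20748559 on the plus strand, within the span of Pank3. Mir103a2 lies at chr3:138963227-138963312 on the plus strand, within Pank2, and Mir107 at chr1:241750418-241750504 on the minus strand, within Pank1. Each host gene is on the strand of its hairpin. Of the 51 bases before the mature miRNA, Mir107 shared 39 with Mir103a1 and 41 with Mir103a2, and the Mir103 precursors shared 40 with each other, so the precursors differ more than the mature miRNAs do. The opposite arms, miR-103-1-5p, miR-103-2-5p and miR-107-5p, were at 0 in every library. Taken as 3 counts over the 2094773 counts in all, the upper limit on each is 1.43 CPM, for counting error alone (CPM, counts scaled to a common library total of 1000000).

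The first question was how far both rows carry the same counts. miR-103-3p had 3069 counts in all and miR-107-3p 3045, a surplus of 24 counts or 0.782% for miR-103-3p. Of the 23 libraries with a count, 15 held exactly equal counts, miR-103-3p was higher in 8 and miR-107-3p in 0. Equality was not limited to small counts, since of the 14 libraries with at least 50 counts of miR-103-3p 7 were equal, among them sedentary library 30 with 198 counts in each row and trained library 18 with 139. Where they differed, sedentary library 7 had 881 counts of miR-103-3p and 877 of miR-107-3p, sedentary library 11 had 382 and 7 fewer, and trained library 1 had 25 and 21. The gap of 7 in sedentary library 11 was the widest in reads, and that of trained library 1 the widest relative to counting error, at 0.590 of the SD expected for the difference of separately counted reads.

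**Figure D1:**
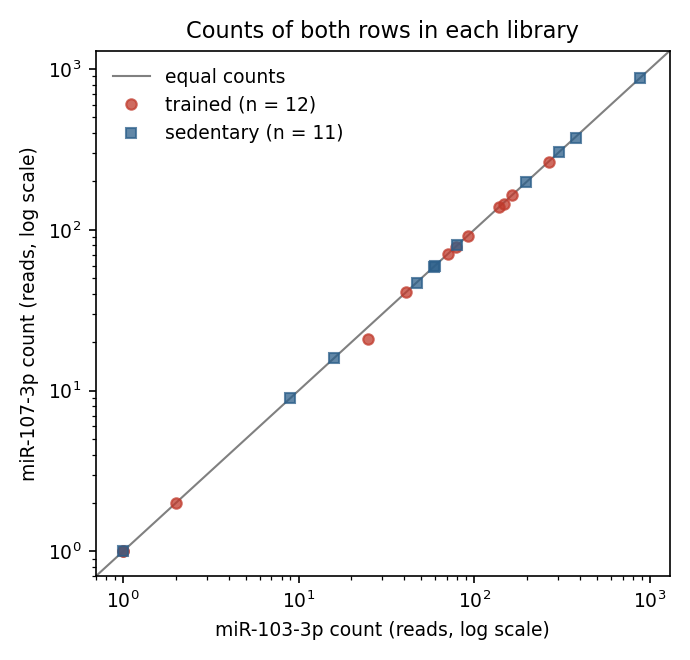
Count of miR-107-3p against miR-103-3p (reads, both axes on a log scale) in the 23 libraries with a count, circles for trained and squares for sedentary rats, with the line of equal counts. The points lie on the line from 1 count up to 881 against 877, and trained library 1 (25 against 21) is the one seen below it.

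Summed over the 23 libraries, the squared differences in units of counting variance came to 0.480, where separate counts of equal mean would average 23. The rows thus differed by far less than sampling noise and are treated here as a single measurement written in both rows. The sources used here do not give how reads that match several miRNAs were assigned, so the share of each miRNA in these reads is uncertain, and agreement of both rows in any result below is not separate evidence. As a share of the pair's counts, miR-107-3p was at 49.5% ± 1.23 in trained (SD, n = 12) and at 49.9% ± 0.139 in sedentary libraries (SD, n = 11). The difference was -0.41 percentage points (permutation test, two-sided, p = 0.289, or 0.663 after adjustment over 3 tests). Without trained library 1 it came to -0.055, and the SD of the trained libraries to 0.179. As both rows are treated as a single measurement, this comparison cannot tell the miRNAs apart.

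Other pairs with a single differing base were set beside these rows, a comparison chosen after the values were seen. Among the 173 rows with at least 100 counts, 156 matched a RefSeq sequence and 16 pairs differed by 1 base over their shared length. Lengths within a pair could differ by up to 2 bases, and the 3′ end was then that of the shorter miRNA. An example is miR-450a-5p (22 bases) with miR-450b-5p (21 bases), which differ at base 21. In 3 pairs the differing base was the last or next to last, and all 3 had a median difference between the rows of 0% in libraries with at least 20 counts in the pair. In the other 13 pairs it lay 2 or more bases from the 3′ end, the median difference ran from 19.9% to 100%, and no library had equal counts. Some of these pairs share a row, let-7a-5p above all, so they are not independent. The following sequences show the contrast, with the differing base in capitals.
miR-133a-3p: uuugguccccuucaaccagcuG
miR-133b-3p: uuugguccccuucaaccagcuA
miR-27a-3p: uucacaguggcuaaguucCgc
miR-27b-3p: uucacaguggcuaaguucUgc
let-7a-5p: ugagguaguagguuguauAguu
let-7c-5p: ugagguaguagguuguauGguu
miR-133a-3p, a muscle miRNA, and its relative miR-133b-3p differ at the last base, had 3645 and 3632 counts and were equal in 10 of 19 libraries. miR-27a-3p and miR-27b-3p, 2 bases from the end, had 573 and 3275 counts with a median difference of 95.4% over 20 libraries. let-7a-5p and let-7c-5p, 3 bases from the end, had 12233 and 32126 counts with a median difference of 67.7% over 25 libraries.

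**Figure D2:**
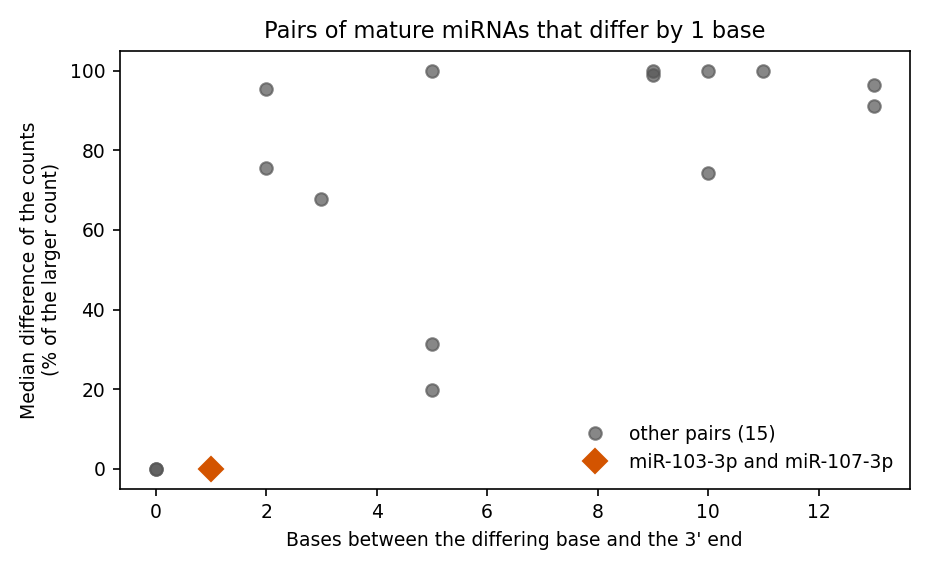
Median difference between the counts of both rows (percent of the larger count, over libraries with at least 20 counts in the pair) against the number of bases between the differing base and the 3′ end, for 16 pairs of mature miRNAs that differ by 1 base. Where lengths differ, the end is that of the shorter miRNA. miR-103-3p with miR-107-3p (diamond) and 2 overlapping pairs at the very end lie at 0%, and the other 13 lie at 19.9% or above.

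The level of the pair was moderate and uneven. Over 25 libraries miR-103-3p was at 1526 ± 1559 CPM (SD, n = 25) and miR-107-3p at 1509 ± 1542 CPM (SD, n = 25), places 51 and 52 in the table by mean CPM, which is not corrected for mature length or ligation. Some other rows also held the same totals, such as miR-3596a and let-7a-5p with 12233 counts each. Library totals, CPM, shares of counts and places may thus count some reads more than once. The nearest rows above were miR-134-5p at 1595 ± 1733 CPM and miR-30a-5p at 1632 ± 1563 CPM (SD, n = 25). The nearest below were miR-328a-3p at 1424 ± 1773 CPM and miR-92a-3p at 1387 ± 1875 CPM (SD, n = 25). The pair was not tested against these neighbours, whose means lay close to its own, so its place among them is not fixed. The coefficient of variation of miR-103-3p, 1.02, lay above the median of 0.866 over the 76 miRNAs with enough counts to test, and 27 of them had a higher one.

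The values of miR-103-3p in single libraries spanned the whole range from 0 to 5469 CPM. Among trained rats the counts were 25 in library 1, 148 in 2, 71 in 5, 79 in 6, 41 in 10, 92 in 13, 1 in 14, 2 in 17, 139 in 18, 0 in 21, 165 in 25, 266 in 26 and 1 in 27. Among sedentary rats they were 306 in library 3, 80 in 4, 881 in 7, 60 in 8, 382 in 11, 47 in 12, 9 in 15, 16 in 16, 1 in 19, 0 in 29, 198 in 30 and 59 in 32. Both groups held libraries near 0 and libraries far above 100 counts, and they overlapped over nearly their whole range.

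**Figure D3:**
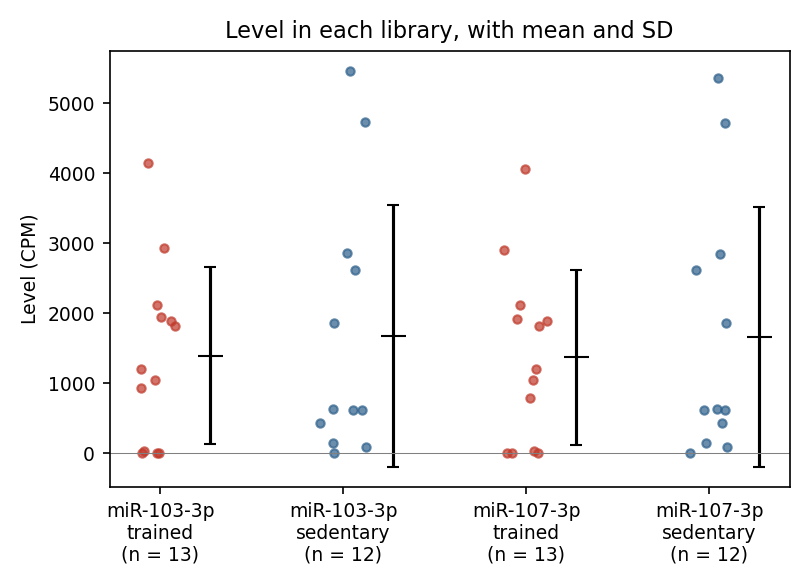
Level (CPM) of miR-103-3p and miR-107-3p in each trained (n = 13) and sedentary (n = 12) library, one point a library, with the mean and SD beside the points. Trained libraries run from 0 to 4147 CPM and sedentary ones from 0 to 5469 CPM for miR-103-3p, and the points for miR-107-3p repeat that picture.

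The low libraries were not all shallow. The 7 libraries under 10 counts of miR-103-3p were trained libraries 14, 17, 21 and 27 and sedentary libraries 15, 19 and 29. Of these, trained library 27 was the deepest of all with 202388 counts, and at the median level over all libraries, 1053 CPM, it would have held 213 counts of miR-103-3p in place of 1. Trained library 21, with 170233 counts and none of miR-103-3p, would have held 179. Taken as 3 counts over the total, the limit for its 0 is 17.6 CPM, and that for sedentary library 29, also at 0, is 39.4 CPM. Their exact two-sided 95% intervals reach higher, to 21.7 and 48.5 CPM. Sedentary library 19, the shallowest with 12181 counts, held 1 count (82.1 CPM). Its exact Clopper-Pearson 95% interval ran from 2.08 to 457 CPM, all of it below the median over all libraries. Trained libraries 14 and 27 also held 1 count each, with intervals from 0.207 to 45.5 and from 0.125 to 27.5 CPM. The highest level, 5469 CPM in sedentary library 11, had an interval from 4935 to 6044 CPM. These intervals and limits cover counting error only, because reads were counted without molecular identifiers.

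Detection in terms of libraries was alike in both groups by count. Among trained libraries 9 of 13 held 10 counts or more of miR-103-3p and 12 of 13 held any, against 9 of 12 and 11 of 12 among sedentary libraries (Fisher's exact test, two-sided, p = 1.00 for both). miR-107-3p had the same numbers. When each level was scaled to the depth of the shallowest library, 9 of 13 trained and 5 of 12 sedentary libraries would have reached 10 counts of miR-103-3p (Fisher's exact test, two-sided, p = 0.238).

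The main comparison asked whether 4 weeks of endurance training changed the pair in the mitochondrial preparations. The level of miR-103-3p in trained rats had its lowest value at 0, its median at 1201 and its highest at 4147 CPM, with a mean of 1391 ± 1266 CPM (SD, n = 13). In sedentary rats the lowest was 0, the median 630 and the highest 5469 CPM, with a mean of 1672 ± 1874 CPM (SD, n = 12). Median and mean thus pointed in opposite directions. For miR-107-3p the means were 1368 ± 1252 CPM in trained (SD, n = 13) and 1661 ± 1852 CPM in sedentary rats (SD, n = 12). The differences in mean of -281 and -293 CPM were far smaller than the SD of either group (two-sided permutation tests, p = 0.663 and 0.645, both with adjusted p = 0.663 over 3 tests), and that of miR-103-3p turned to 63.9 CPM without sedentary library 11. Between the same groups, the skeletal muscle markers described below took a median of 23.6% of counts in trained (11.0% to 27.1%) and 16.4% in sedentary libraries (9.15% to 32.5%). The erythrocyte list took 1.70% (1.01% to 5.27%) and 3.10% (1.00% to 4.75%). All of that came from miR-486, as the other members of the list were at 0, so it is the value of a single miRNA. Medians of the other lists in trained and sedentary libraries were 0.229% and 0.317% for leukocytes, 0.561% and 0.641% for endothelium, 2.42% and 3.22% for smooth muscle, 0.450% and 0.391% for connective tissue, and 2.69% and 2.45% for fat and liver. The ranges of each list overlapped, and the part of these cell types in the level of the pair was not tested. In bulk preparations a smaller number of mitochondria or cells that carry a miRNA and less of it in each cannot be told apart.

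In the fit across all 76 tested miRNAs, 0 were called (0% of those tested, edgeR quasi-likelihood test, Benjamini-Hochberg adjusted p under 0.05), and 1 had an unadjusted p under 0.05, against 8 of 260 with DESeq2 and 14 of 76 with limma-voom, which also called 0. The log2 fold change, trained minus sedentary, was -0.15 for miR-103-3p (SE 0.94, 95% interval -2.04 to 1.74, p = 0.875, edgeR adjusted p = 0.999). For miR-107-3p it was -0.16 (SE 0.95, 95% interval -2.06 to 1.73, p = 0.864, edgeR adjusted p = 0.999). The interval leaves room for a 4-fold change in the lower direction, a log2 change of -2, and for nearly as much in the other, so neither a change nor its absence is shown. The SE was above the median of 0.72 over the 76 miRNAs, and 23 of them had a larger one. The sign rested on single libraries, as the value for miR-103-3p was 0.069 without trained library 27, 0.074 without sedentary library 4 and 0.26 without sedentary library 11. No setting called either miRNA, and with no filter on low counts, where 25.4% of 260 rows were called, miR-103-3p was at -0.12 (SE 0.90, edgeR adjusted p = 0.949).

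**Figure D4:**
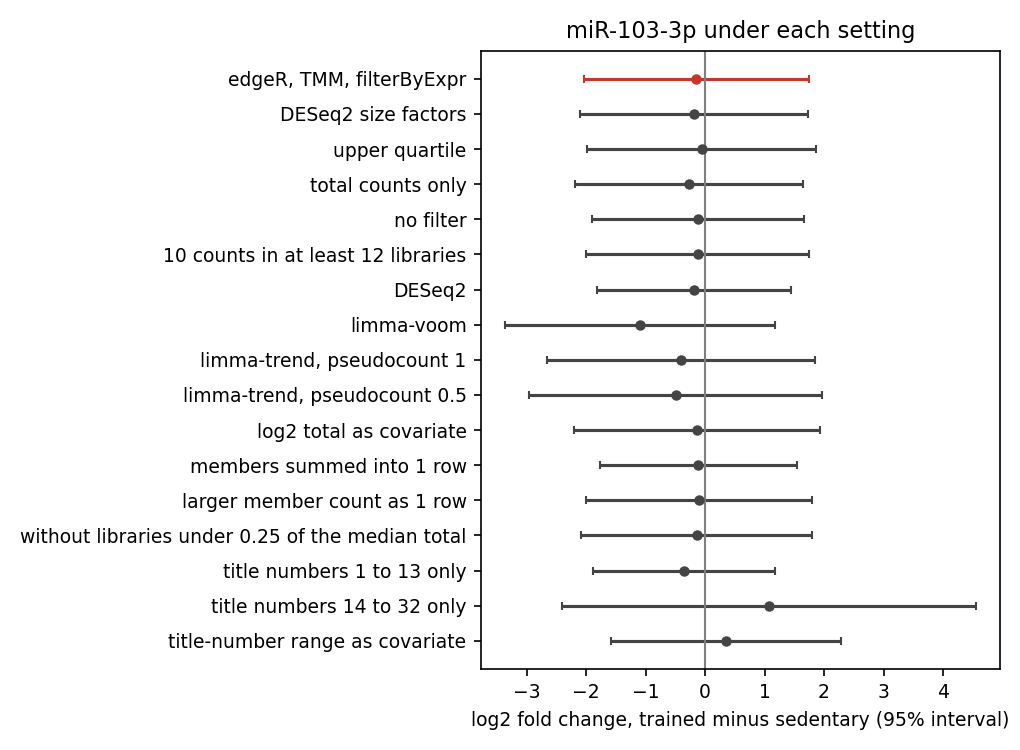
Log2 fold change of miR-103-3p, trained minus sedentary, with its 95% interval, from edgeR with TMM factors (top, red) and under 16 other settings. Every interval includes 0, the point from limma-voom lies lowest at -1.09, and the points to the right of 0 are 1.08 among rats numbered 14 to 32 and 0.35 with the number range as covariate.

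By median, the level of the pair was lower in rats with higher numbers in the sample title, though the ranges overlapped. The labels do not describe these numbers as a batch. The split at number 13 was taken from earlier results on these libraries. All 12 libraries numbered 1 to 13 had at least 25 counts of miR-103-3p, from 615 to 5469 CPM with a median of 2368. All 7 libraries under 10 counts were among the 13 numbered 14 to 32, where the level ran from 0 to 1940 CPM with a median of 143.3. Totals were lower in the first range, with a median of 41215 counts against 94573. That held for trained rats (medians of 34915.5 and 137114), while sedentary rats went the other way (85395 and 69422.5). In an edgeR fit with the group as covariate, chosen after these values were seen, the log2 fold change of miR-103-3p, numbers 14 to 32 minus 1 to 13, was -1.81 (SE 0.98, p = 0.0694, edgeR adjusted p = 0.313) and that of miR-107-3p -1.80 (SE 0.98, p = 0.0728, edgeR adjusted p = 0.313). Neither passed, and of the 76 none did (0% called, with 15 at an unadjusted p under 0.05). That count of 0 rested on single libraries, since 13 of the 25 fits without a library called at least 1 miRNA, though miR-103-3p and miR-107-3p were called in none of the 25. The calls were 10 without sedentary library 8, 5 without trained library 27 or sedentary library 4, 11 or 32, and 4 without trained library 25 or sedentary library 16, 29 or 30. They were 3 without trained library 17 or sedentary library 12, 2 without trained library 13 and 1 without sedentary library 3. DESeq2 called 21 of 260 (8.08%), of which 141 had an adjusted p, and left miR-103-3p at -1.95 (SE 0.77, DESeq2 adjusted p = 0.0658).

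**Figure D5:**
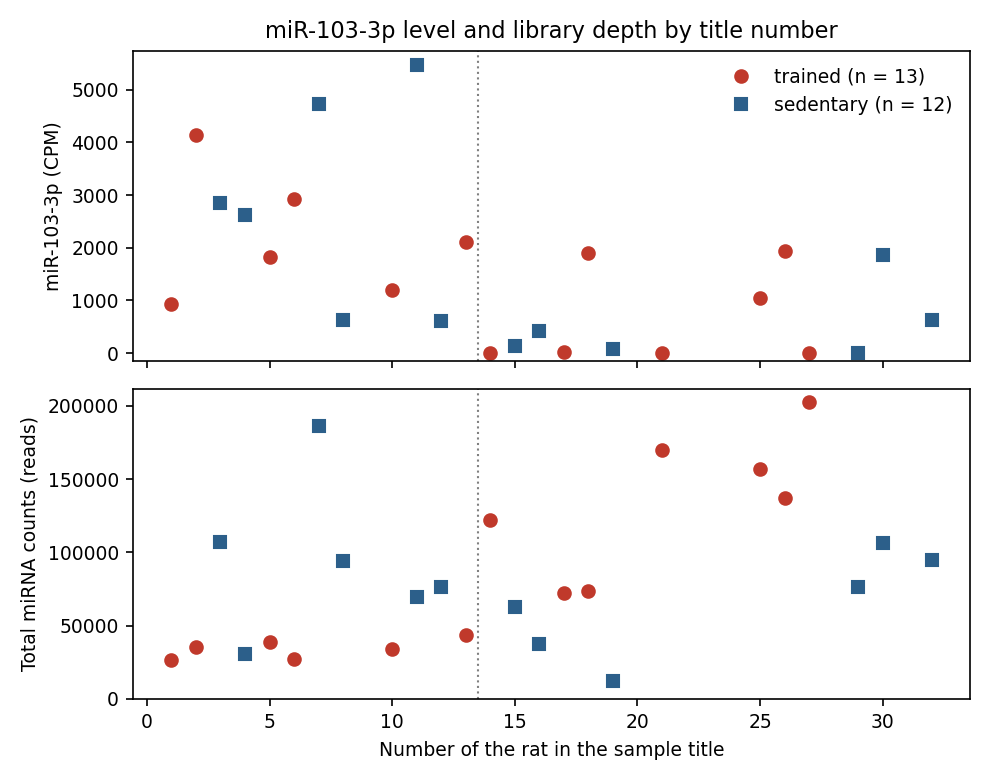
Level of miR-103-3p (CPM, upper panel) and total miRNA counts (reads, lower panel) against the number of the rat in the sample title, circles for trained and squares for sedentary rats, with a dotted line between numbers 13 and 14. To the left of the line each library lies at 615 CPM or above, and to the right 7 of 13 lie at 143.3 CPM or below, in deep as well as shallow libraries.

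Within each range the trained and sedentary libraries again overlapped. Depth differed too, as sedentary libraries had the higher median total at numbers 1 to 13 and trained ones at numbers 14 to 32. At numbers 1 to 13 miR-103-3p was at 2193 ± 1190 CPM in trained (SD, n = 6) and 2822 ± 2018 CPM in sedentary rats (SD, n = 6; exact permutation test, two-sided, p = 0.517), with a log2 fold change of -0.36 (SE 0.73, edgeR adjusted p = 0.996). At numbers 14 to 32 it was at 704 ± 912 CPM in trained (SD, n = 7) and 522 ± 694 CPM in sedentary rats (SD, n = 6; exact permutation test, two-sided, p = 0.720), with a log2 fold change of 1.08 (SE 1.77, edgeR adjusted p = 0.906). With the range as covariate in a fit of all libraries the value was 0.35 (SE 0.96, edgeR adjusted p = 0.971). Whether the group difference itself differed between the ranges was not tested.

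Marker lists of tissue and cell types are given beside the number ranges as a description, with no test. The skeletal muscle list (5 of 6 miRNAs with a count, miR-1-3p, miR-206-3p and miR-133a-3p among them, miR-208b-3p at 0) took 9.15% to 24.5% of counts at numbers 1 to 13 and 11.4% to 32.5% at numbers 14 to 32, with medians of 13.2% and 25.7%. The erythrocyte list took 1.70% to 5.27% and 1.00% to 4.75% with medians of 3.10% and 1.26%, all from miR-486, as miR-451-5p and both miR-144 arms were at 0. The leukocyte list (4 of 7 with a count, miR-155-5p, miR-142-3p and miR-223-3p at 0) took 0.126% to 0.676% and 0.00413% to 1.24% (medians 0.313% and 0.162%), and the connective tissue list (4 of 4) 0.122% to 1.61% and 0.0161% to 0.929% (medians 0.550% and 0.387%). The smooth muscle list (4 of 4) took 0.921% to 5.55% and 0.805% to 5.34% (medians 2.55% and 2.47%), the endothelial list (3 of 4, miR-126a-5p at 0) 0.161% to 1.11% and 0.246% to 1.92% (medians 0.502% and 0.611%), and the fat and liver list (2 of 4, miR-335 and miR-193a-3p at 0) 1.11% to 3.58% and 0.575% to 5.57% (medians 2.12% and 2.69%). Single rows carried some lists. Over all libraries miR-143-3p of the smooth muscle list had a mean of 27187 CPM, against 79.4 CPM for miR-145-5p. In the fat and liver list miR-148a-3p carried most of the share, with an average log2 CPM of 14.8 in the edgeR fit. miR-122-5p, the only other member with a count, had a mean of 819 CPM. The share of a list is thus not a measure of how much of a cell type was present. The ranges of all lists overlapped, and their part in the level of the pair was not tested.

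The rows whose CPM most resembled that of miR-103-3p over the 25 libraries were named by Spearman's rho, as a description with no p. They were miR-30d-5p (0.68), miR-1839-5p (0.61), miR-125a-5p (0.58), and miR-125b-5p with miR-3588, which held identical totals of 7522 counts (0.58 for both). All values share the library totals. Of the 37 tested rows with at least 10 counts in all 12 libraries numbered 1 to 13, only miR-103-3p, miR-107-3p, miR-125b-5p and miR-3588 fell under 10 counts in at least 7 of the 13 later ones, a count built on the pattern of the pair itself. miR-1-3p, the muscle-specific miRNA and the most abundant row, ran the other way, with a rho of -0.66.

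Other miRNAs carry the AGCAGC start that links the pair to the miR-15 and miR-16 group, known for restraining the cell cycle. In those the motif begins at base 2 and so lies within the seed, while in miR-103-3p and miR-107-3p it begins at base 1. The sequences show this shift, with AGCAGC in capitals.
miR-16-5p: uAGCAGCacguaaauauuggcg
miR-195-5p: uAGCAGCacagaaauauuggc
miR-503-5p: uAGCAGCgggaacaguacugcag
Of the 9 miRNAs listed for this group, 7 were in the table, 3 had a count and 0 were tested. miR-195-5p, a miRNA of the heart and muscle that stops the cell cycle, had 85 counts, 81 of them in a single library. miR-16-5p had 44 counts, all in 1 library, and miR-503-5p had 33 counts in 3 libraries. miR-15a-5p, miR-15b-5p, miR-322-5p and miR-497-5p had 0 counts, with the same limit of 1.43 CPM. Whether rows were filtered before the table was made is not given, so a 0 does not show absence. Against the 162 counts of these 7 rows, miR-103-3p alone held 3069.

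Of 46 further miRNAs described in insulin action, glucose or lipid metabolism, 44 were in the table, 34 had a count, and the filter kept 22. By the TMM scaling 13 had positive and 9 negative log2 fold changes, trained minus sedentary, and 0 passed (lowest edgeR adjusted p = 0.916), beside 37 positive and 39 negative among all 76. Rows with the same or nearly the same counts, such as miR-133a-3p and miR-133b-3p, enter these tallies separately. The list's median was 0.081 with a range from -1.12 to 0.65, and that of all tested rows was -0.0080. miR-378a-3p, like the pair an intronic miRNA of a metabolic gene (the PGC-1β gene), was at 67848 ± 24167 CPM (SD, n = 25). miR-33-5p, from an intron of the cholesterol regulator gene Srebf2, had 0 counts. Rows of similar level to the pair also had wide errors, as for miR-27b-3p, which acts on lipid metabolism, at 0.48 (SE 0.87, edgeR adjusted p = 0.971), and for miR-146a-5p, a brake on inflammatory signalling, at -0.55 (SE 0.89, edgeR adjusted p = 0.971). The more abundant miR-320-3p, described in insulin-resistant fat cells, was at -0.24 (SE 0.34, edgeR adjusted p = 0.971).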

How the data were processed

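Per the labels' protocols, RNase A (312 µg, 37 °C, 1 h) was applied to mitochondria from roughly 100 mg of muscle, and small RNA libraries had adapters at 0.3x and 20 PCR cycles. The authors deposited raw counts, whole numbers per mature miRNA whose empty cells were read as 0. A normalized signal was deposited as well, in which every count of a library is scaled by the same factor (relative deviation under 1.59e-09). fastp 0.20.0 and DESeq2 1.36 appear in the submitters' processing notes. The sources used here do not give the aligner, counter, multi-match rule, build or annotation. Totals were 26793 to 202388 counts in trained and 12181 to 186006 in sedentary libraries.

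Groups were compared on the raw counts by edgeR's quasi-likelihood test (edgeR 4.0.16 in R 4.3.3) with TMM factors, no covariate, and filterByExpr (minimum count 10, minimum total 15), adjusted by Benjamini-Hochberg over 76 miRNAs at a threshold of 0.05. SE was taken as the log2 fold change over the root of F. Single values were compared by permutation (100000 resamples, exact within number ranges) and Fisher's exact test (scipy 1.17.1). Alternatives used DESeq2 1.42.0, limma 3.58.1 (voom, and trend on the deposited signal, pseudocount 1 or 0.5), further scalings, looser and stricter filters, the library total as covariate, the pair as a single row, ranges of title numbers, and each library left out. The edgeR script was run on simulated counts with the same dispersion for every row, a simpler setting than these data, so that run checks the code only. The labels call the libraries separate rats and give no litter or batch. Named were the pair and its other arms, tested members of both lists, the 2 rows next above and below in CPM, and the 5 most alike by rank correlation. Members and lists were chosen with earlier results of these data known. miR-33-5p, the rows of the AGCAGC list and the pairs with 1 differing base were named for their counts or sequence after the values were seen.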

Additional observations from a re-analysis of the deposited data

How the results depend on the processing

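No paired analysis was possible because no title number occurs in both groups. 0 miRNAs were called, trained minus sedentary, in 15 of 16 other settings and in 25 of 25 settings without a library (0 to 0), the exception being no filter with 66. The log2 fold change of miR-103-3p kept its sign in 14 of 16 other settings and in 22 of 25 without a library, and neither miRNA was called in any of them. It was 1.08 among numbers 14 to 32 and 0.35 with the number range as covariate, against 1.07 and 0.34 for miR-107-3p. Without a library it ran from -0.41 to 0.26 for miR-103-3p and from -0.42 to 0.24 for miR-107-3p. Without trained library 27, sedentary library 4 and sedentary library 11 in turn, miR-107-3p was at 0.056, 0.061 and 0.24. The difference in mean was 181.4 CPM for miR-103-3p and 177 CPM for miR-107-3p among numbers 14 to 32, and without a library ran from -511 to 63.9 and from -518 to 43.7 CPM. The share of miR-107-3p kept its sign throughout (-0.45 to -0.055 percentage points without a library). The difference in detected libraries was -5.77 percentage points at 10 counts, -14.1 at 3 counts and 0.641 at 1 count for both miRNAs, and at the shallowest depth 27.6 for miR-103-3p and 19.9 for miR-107-3p. For numbers 14 to 32 minus 1 to 13 the calls rose from 0 to 3 with DESeq2 size factors, 6 with total counts only and 21 with DESeq2, stayed at 0 with the log2 total as covariate, and ran from 0 to 10 without a library (at least 1 call in 13 of 25), and miR-103-3p ran from -2.23 to -1.65 without a library, never called. The range covariate and the number-range comparison, with its alternatives, were chosen after seeing the data. The cause of these changes was not tested. Depth limits the pair most in sedentary library 19, where 0 counts would allow 246 CPM, taken as 3 counts over the total.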

Other observations

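In the AGCAGC group the arm with more counts differed between miRNAs. miR-195-3p had 940 counts and was present in 17 of 25 libraries (10 trained and 7 sedentary), with at least 10 counts in 11, while miR-195-5p from the same precursor had 85 counts in 3 libraries. miR-503-3p had 260 counts in 6 libraries against 33 in 3 for miR-503-5p, and miR-322-3p had 75 counts in 6 libraries against 0 for miR-322-5p. miR-15a-3p had 13 counts in 1 library against 0 for miR-15a-5p. The other way round, miR-16-5p had 44 counts in 1 library against 0 for miR-16-3p, and both arms of miR-15b and miR-497 were at 0. miR-103-3p and miR-107-3p had all their counts in the arm with the motif, with 3069 and 3045 counts in the 3p rows and 0 in the 5p rows. The arms of the AGCAGC group had too few counts to be tested between the groups.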
